A study of Homo sapiens with 17 samples.

Results

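The 8 genes described here encode MYC, its obligate partner MAX, and 6 further proteins of the same dimerization network: MNT, MGA, MLX, MXI1, MXD1 and MXD4. They were chosen by name, and a region was counted for a gene where its overlap annotation names the gene with an exon or intron mark, with or without a promoter mark. This gave 200 of the 326944 regions listed over 3 prostate cell lines, with 84 of 139373 in HPr1AR and 64 of 110260 in LNCaP, and 22Rv1 had 52 of 77311. Of these, 27 also carry the name of another gene.

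MYC is a basic helix-loop-helix leucine zipper transcription factor that drives growth genes when bound to MAX at E-box sequences. MNT, MGA, MXD1, MXI1 (also known as MXD2) and MXD4 compete for MAX and act as repressors, MXD proteins and MNT mainly through SIN3 and histone deacetylases and MGA within a Polycomb complex. MLX is the partner of the glucose-responsive factors MLXIP and MLXIPL, and also dimerizes with MNT, MXD1 and MXD4. N6-methyladenosine (m6A) is a modified adenosine of RNA, frequent in long exons and around stop codons, and the RNA of MYC is a known target of m6A readers.

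An enrichment kit served to pull down RNA with anti-m6A antibody or with unspecific IgG, and the libraries were sequenced in reads of 50 bp. HPr1AR cells are non-malignant prostate epithelium. LNCaP cells came from a metastasis of prostate cancer and respond to androgen, whereas 22Rv1 cells, also of prostate cancer, can grow without it. The 17 samples form 6 groups, all labelled wild type and vehicle-treated: m6A and IgG pull-downs of HPr1AR (3 and 3 samples), of LNCaP (3 and 3) and of 22Rv1 (2 and 3). An m6A replicate 2 of 22Rv1 is not among the samples used here, and whether it entered the table of that line is unknown. A difference between lines describes these 3 lines only.

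Each table holds the comparison of 1 line without per-sample values, and the spread between samples is therefore unknown for every result. The authors' deposited table of each line lists every region as up and gives a log2 fold and a p-value. The folds follow a formula in which the reference is subtracted 2 times, so that a single numerator read is enough to pass. The whole reads behind each fold and p-value were therefore rebuilt. They belong to the representative window of a region, and not to the whole region. The numerator pull-down is not named in the headers and was taken to be m6A after the table names. "Higher" means more numerator than reference reads relative to the rebuilt depths, by an exact binomial test, two-sided, with Benjamini-Hochberg adjustment over all regions of the line at 0.05. The intervals are exact 95% binomial intervals, and tests and intervals cover counting error only.

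The rebuilt depths were 5.13 M numerator and 11.7 M reference reads in HPr1AR, 3.92 and 8.87 M in LNCaP, and 3.30 and 4.82 M in 22Rv1. The labels aim at about 40 M read pairs per sample, and the rebuilt depths rest on an assumption given with the processing. Where the deposited p-value is 0 or no pair of whole reads met both values, the smallest reads that reach the p-value are given, and the log2 read ratio is then a lower bound. This holds for 32 of the 200 member regions, 18 in HPr1AR and 14 in LNCaP. Ratios with 0 reference reads use a floor of 3 reads and are also lower bounds. Ratios with 0 numerator reads use the same floor, which raises them. In the reads of 1 pull-down, more copies of a transcript and more pulled down per copy cannot be told apart, and no input library was used here. Exon regions of the basal markers TP63, KRT5 and KRT14 were listed in HPr1AR (10, 2 and 2) and in neither cancer line. KLK3 and KLK2, the androgen-regulated kallikreins, were listed in LNCaP (2 and 2) and 22Rv1 (4 and 2) but not in HPr1AR.

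Promoter sequence was matched by symbol in a RefSeq table of assembly GRCh38.p14, which held 12 start sites of 7 of the 8 genes. No start site was matched for MYC, so its promoter was not searched. The E-box CACGTG, which reads the same on both strands, is the sequence bound by MYC with MAX and by the repressors with MAX. It stood in the 250 bases before a start site of 3 genes, MNT, MXD4 and MLX. Of the 35116 windows of this length in the table, 6.34% held it. The former counts genes, some with several start sites, and the latter counts start sites. The windows of MNT, MXD4 and MLX are shown. These genes encode partners of MAX or MLX and carry regions with a promoter mark in all 3 lines. MAX, MGA and MXI1 carry such regions in all 3 lines too, but had no E-box in these bases. Capitals mark the E-box, which begins 193 bases before the start in MNT, 238 in MXD4 and 50 in MLX.
MNT (chr17:2401061-2401310, minus strand): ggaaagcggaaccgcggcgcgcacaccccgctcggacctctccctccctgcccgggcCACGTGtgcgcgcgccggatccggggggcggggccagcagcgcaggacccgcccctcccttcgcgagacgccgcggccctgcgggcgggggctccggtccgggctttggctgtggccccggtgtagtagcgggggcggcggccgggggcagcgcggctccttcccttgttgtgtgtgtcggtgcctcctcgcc
MXD4 (chr4:2262110-2262359, minus strand): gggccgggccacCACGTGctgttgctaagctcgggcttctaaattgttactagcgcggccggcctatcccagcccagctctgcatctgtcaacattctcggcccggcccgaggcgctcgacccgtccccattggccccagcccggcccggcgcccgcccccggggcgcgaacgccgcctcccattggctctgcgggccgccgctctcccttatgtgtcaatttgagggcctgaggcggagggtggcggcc
MLX (chr17:42566850-42567099, plus strand): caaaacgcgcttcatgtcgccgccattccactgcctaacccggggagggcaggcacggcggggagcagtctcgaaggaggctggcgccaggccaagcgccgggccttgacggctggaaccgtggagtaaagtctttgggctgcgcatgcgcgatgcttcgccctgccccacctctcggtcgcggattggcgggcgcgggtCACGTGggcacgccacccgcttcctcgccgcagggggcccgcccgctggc

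The letters GGAC, the most frequent core of the m6A consensus, were searched on the transcribed strand of the first 50 transcribed bases. They occurred for a start site of MNT, MAX and MGA, and in 18.9% of all start sites of the table, again genes beside start sites. The 30 transcribed bases around them are shown for these 3 genes, with GGAC in capitals. MNT, MAX and MGA had a promoter-marked exon region that was higher in every line, but so did MYC, MLX and MXI1. MLX and MXI1 had no GGAC in the bases searched, and MYC had no matched start site.
MNT (chr17:2401014-2401043, minus strand): tttcttgtcggcgGGACtcccgggggccgc
MAX (chr14:65102243-65102272, minus strand): ggttgtcaggcggGGACagcggccggggct
MGA (chr15:41660425-41660454, plus strand): ctcttcagctggagcGGACacacggtgtgc
Such a match is a description of these letters and not a mapped m6A site. The deposited regions could not be laid over these windows, because only 15 of the 200 member regions (7.5%) lay inside their gene's span in GRCh38, all of them in 1 gene, although the submitters' processing notes name hg38. Region positions below are printed as the files give them, in a build that was not identified.

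All 8 genes had at least 1 higher exon region in each of the 3 lines. This is also common among other genes: of the genes with an exon region, 90.9% had a higher one in HPr1AR, 87.7% in LNCaP and 88.9% in 22Rv1. Of the member regions, 37 of 84 were higher in HPr1AR (44.0%, against 38% of all regions), 34 of 64 in LNCaP (53.1%, against 37.5%) and 32 of 52 in 22Rv1 (61.5%, against 54.4%). None was lower by the exact binomial test, where 0.0911%, 0.0989% and 0.753% of all regions were. A log2 read ratio below 0 was found for 34 member regions. The floor kept 1 region out of these 34, MXD4 in LNCaP with 0 against 6 reads, at 0.18. By the authors' adjusted p-value, 83 of 84, 63 of 64 and 52 of 52 member regions passed 0.05, close to the 96.5%, 95.4% and 99.3% of all regions. The 2 that did not pass held 0 numerator reads, and 15 regions held only 1.

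Relative to each line's median region in place of the depths, the count of higher member regions dropped to 22 in HPr1AR and in LNCaP and to 11 in 22Rv1, while 2, 0 and 5 regions became lower. The medians lay at a log2 read ratio of 1.23, 1.18 and 2.10. On that scale 21.2%, 21.7% and 15.8% of all regions were higher and 7.59%, 6.66% and 16.2% lower. MYC then had no higher exon region in any line, and MLX and MXI1 had none in 22Rv1, which leaves 5 of 8 genes with one in that line. Directions below are relative to the depths unless another scale is named.

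Most of the higher member regions were exon regions, but so were most of the listed ones in every line. Exon regions were higher in 28 of 48 cases in HPr1AR and 25 of 40 in LNCaP, and 22Rv1 had 26 of 43, beside 43.5%, 42% and 49.8% of all exon regions. Intron regions were higher in 9 of 36, 9 of 24 and 6 of 9 cases, beside 24.6%, 24.6% and 55.8% of all intron regions. Only 6, 7 and 3 of these higher intron regions name no other gene. A member region was typed by the mark of the member gene, even where it overlaps an exon of another gene. The shares of all intron regions leave out such overlaps and are not strictly comparable. In 22Rv1 the share called was larger for intron than for exon regions of the members. Higher member regions were wide, with a median of 950 bp in HPr1AR, 975 bp in LNCaP and 820 bp in 22Rv1, and regions not called were narrow, with medians of 120, 130 and 110 bp. Of exon regions of 1000 bp or more, 14 of 15, 13 of 14 and 11 of 11 were higher, beside 78.6%, 79.5% and 83.7% of all exon regions of that width. The part of region width in these calls was not tested.

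**Figure D1:**
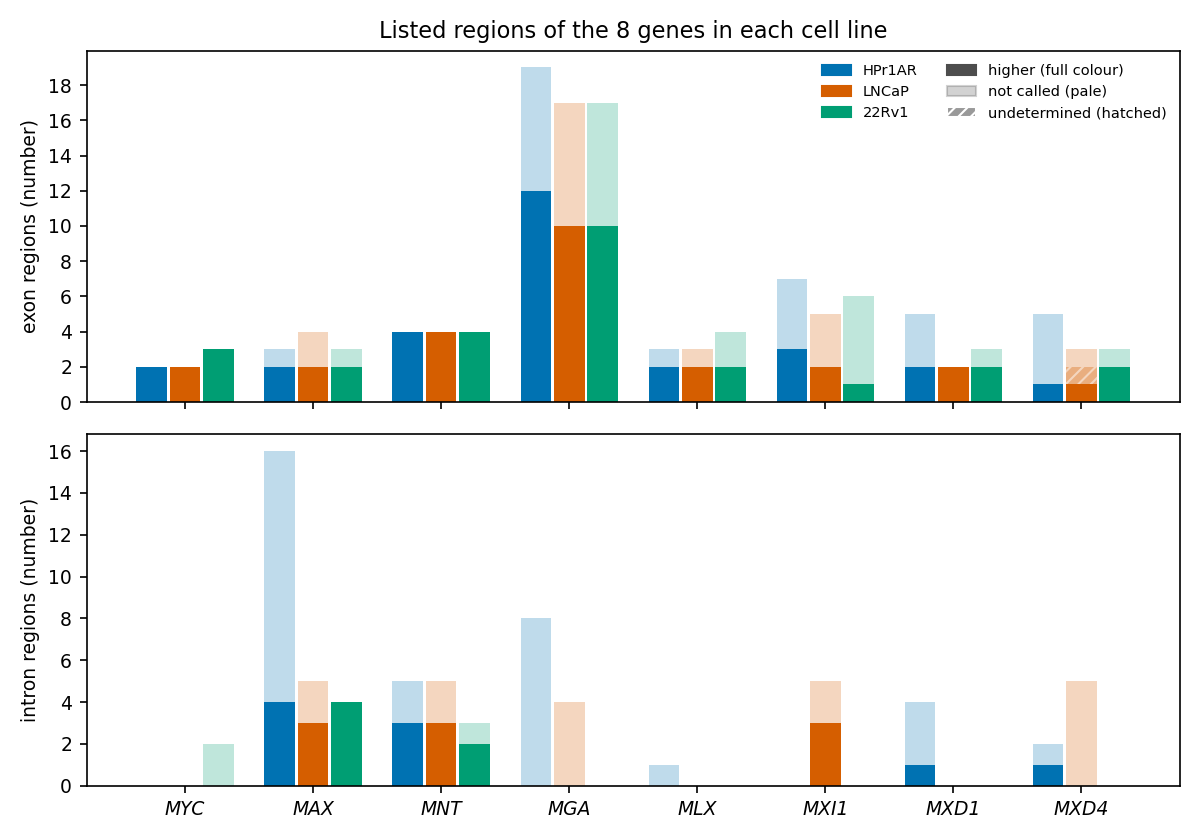
Number of listed regions of each gene in HPr1AR, LNCaP and 22Rv1, with exon regions above and intron regions below. Full colour marks regions higher by the exact binomial test, pale colour those not called and hatching the 1 undetermined region of MXD4 in LNCaP. All exon regions of MYC and MNT were higher, while MGA had 7 exon regions not called in each line.

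MYC had the lowest leading ratio of the 8 genes in 22Rv1. In this line, where no MYC value is a bound, 3 exon regions were higher, and they held 76 numerator against 38 reference reads, 86 against 44, and 59 against 39. Their log2 read ratios were 1.55 (interval 0.97 to 2.15), 1.51 (0.97 to 2.07) and 1.14 (0.54 to 1.77). A further pair of reads also meets the deposited values of the first. The regions lie on chromosome 8 from 128748311 to 128749140, 128750471 to 128751280 and 128752631 to 128753520, and the first carries a promoter mark. Adjusted p by the exact binomial test was 4.32e-08 for the leading region, the one with the most numerator reads.

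The same stretches were listed in the other lines in 2 regions, both with a deposited p-value of 0. In HPr1AR the 5′ region, from 128747771 to 128752150, held at least 69 numerator reads with 58 reference reads, or at least 1.44 in log2 read ratio (lower limit 0.92). The 3′ exon region, from 128752431 to 128753560, held at least 71 with 77, a ratio of at least 1.07 (lower limit 0.59). In LNCaP the matching values were at least 72 with 65 and 1.32 (0.82), and at least 73 with 74 and 1.16 (0.67). No upper limit can be given for these 4 values, so they cannot be ordered against 22Rv1. Between the 3 exons, 22Rv1 also listed 2 intron regions of MYC with 7 against 2 and 6 against 3 reads, neither of them called.

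In 22Rv1 the leading exon region of MYC had 44 reference reads, more than the leading exon regions of 97.7% of genes. The 77 and 74 reference reads in HPr1AR and LNCaP belong to the smallest pairs that reach the p-value and were not ranked. The leading region of MYC is the 3′ exon region in HPr1AR and LNCaP, but the one from 128750471 in 22Rv1. In the authors' deposited table its log2 fold, 18.25, 17.99 and 18.23, exceeded that of 7.01%, 8.45% and 10.5% of all regions of the line. In 22Rv1 the read ratio of MYC exceeded that of 14.5% of the 13784 genes with an exon region. Relative to the median region of 22Rv1 the leading MYC region turned to -0.59. By the largest difference over the 3 lines, the genes nearest to MYC among 12214 were R3HDM4 (0.0873 log2 units), the myosin heavy chain gene MYH9 (0.102), PLAAT3 (0.126) and SPC24 (0.137). The values of MYC in HPr1AR and LNCaP are bounds, which limits this ranking.

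**Figure D2:**
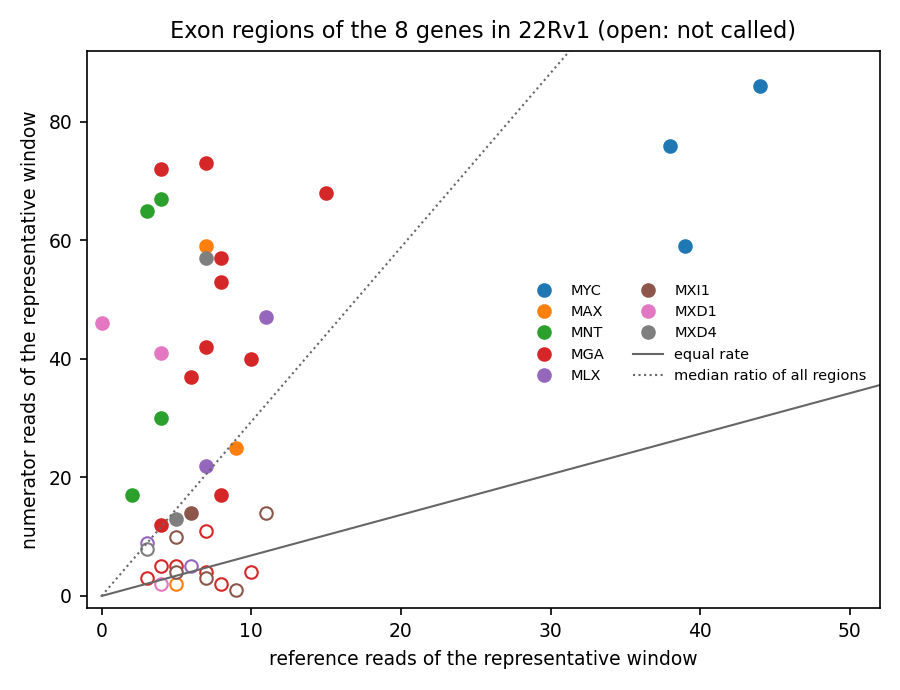
Numerator against reference reads of the representative window of each exon region in 22Rv1, with filled points for higher regions. The 3 MYC regions hold 38 to 44 reference reads, while no other exon region of the 8 genes holds more than 15.

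MAX, the shared partner, was higher in its promoter-marked first region and in its long 3′ exon region in every line. The 5′ region, on chromosome 14 up to position 65569240, held 48 numerator against 13 reference reads in HPr1AR, 29 against 9 in LNCaP and 25 against 9 in 22Rv1. The log2 read ratios were 3.07 (2.17 to 4.08), 2.87 (1.75 to 4.13) and 2.02 (0.87 to 3.30), with intervals that overlap among the lines. The 3′ exon region, which starts at 65541901 in HPr1AR and LNCaP and at 65542181 in 22Rv1, led the gene. It held at least 65 with 28 reads in HPr1AR, at least 64 with 13 in LNCaP and exactly 59 against 7 in 22Rv1. Its ratios were at least 2.41 and at least 3.48, and 3.62 (2.49 to 5.0). A short exon region at 65560411, shared with LOC100506321 on the opposite strand, was not called in any line, with 7 against 9, 3 against 5 and 2 against 5 reads.

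Introns of MAX held regions that were higher in every line. The region within 65535341 to 65536990 names no other gene, and it held at least 60 numerator reads with 1 reference read in HPr1AR, 29 against 2 in LNCaP and 48 against 2 in 22Rv1. The log2 read ratios there were at least 7.10 (lower limit 4.56), 5.04 (3.05 to 8.15) and 5.13 (3.20 to 8.22). The intron regions at 65527681 and 65521131 were higher in all lines too, but there the annotation gives exons of FNTB and CHURC1-FNTB on the opposite strand. FNTB encodes the beta subunit of protein farnesyltransferase. Since the strand of the reads is not stated, the reads of those regions cannot be assigned to MAX or to FNTB. The former held at least 62 with 11 reads, at least 63 with 8 and exactly 64 against 6. A further intron region, which also names FNTB and CHURC1-FNTB, was higher with 7 against 0 reads in both HPr1AR (from 65482611) and 22Rv1 (from 65482651). The 12 other MAX intron regions of HPr1AR, with at most 5 numerator reads, were not called, and 10 stretches of MAX were listed in HPr1AR alone, none of them higher.

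**Figure D3:**
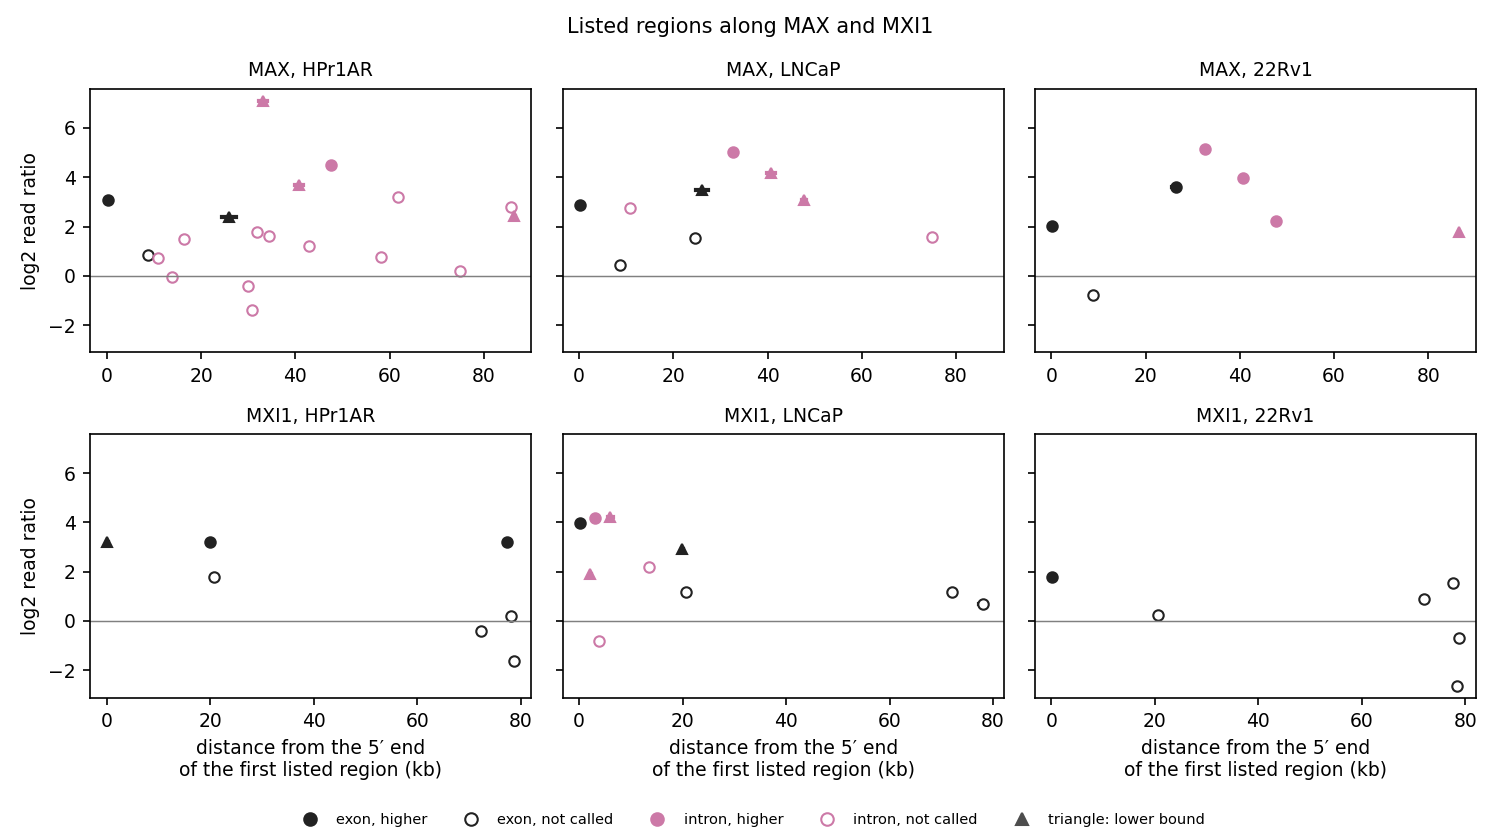
Log2 read ratio of each listed region of MAX (top) and MXI1 (bottom) against the distance in kb from the 5′ end of the first listed region, in HPr1AR, LNCaP and 22Rv1. Black marks exon and pink intron regions, filled marks are higher, triangles are lower bounds (a floor of 3 reads is used where a pull-down has 0), and horizontal bars give region widths. The MAX intron region near 33 kb is higher in each line, at 5.13 in 22Rv1, and the first MXI1 region is higher in each line too.

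MNT, a MAX-binding repressor is expressed in most cells. All 4 of its exon regions were higher in each line, with log2 read ratios from 3.06 to 4.54 in HPr1AR, 2.84 to 4.15 in LNCaP and 3.45 to 4.98 in 22Rv1, bounds included. The 3′ exon is listed as 2 abutting regions on chromosome 17 between 2286961 and 2292600. In 22Rv1 these held 67 numerator against 4 reference reads and 65 against 3, with ratios of 4.61 (3.19 to 6.53) and 4.98 (3.37 to 7.30). The part nearer the 3′ end held at least 63 with 12 reads in HPr1AR and exactly 60 against 13 in LNCaP, and the other part at least 62 with 8 and at least 63 with 8. At the 5′ end, the promoter-marked exon region from about 2303921 to 2304380 held 22 against 6, at least 19 with 6, and 17 against 2 reads. The region has ratios of 3.06 (1.72 to 4.66), at least 2.84 (lower limit 1.46) and 3.63 (1.56 to 6.79). Intron regions of MNT were higher in 3, 3 and 2 cases, with no other gene named. The one at 2294611 to 2297040 in LNCaP held 13 against 9 reads, and in HPr1AR the matching region held 19 against 10.

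MGA, a very large protein with a T-box as well as a helix-loop-helix domain, had the most exon regions: 19 in HPr1AR and 17 in each of the cancer lines. Of these 12, 10 and 10 were higher, and no intron region was. In 22Rv1 the 2 highest were the last exon region, on chromosome 15 from 42058211 to 42061880, with 72 numerator against 4 reference reads, or 4.72 in log2 read ratio (3.30 to 6.63), and the wide internal region from 42040841 to 42042900, with 73 against 7, or 3.93 (2.81 to 5.29). The last exon region held at least 65 with 24 reads in HPr1AR and at least 63 with 9 in LNCaP, ratios of at least 2.63 and at least 3.98. The internal region from 42040821 held at least 65 with 24 and at least 64 with 10.

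Along MGA, 9 of 27 stretches were higher in all 3 lines, and 17 stretches were listed in all 3. The 950 bp exon region at 41988261 had the same borders in HPr1AR and LNCaP and held at least 67 with 40 reads in HPr1AR, at least 65 with 14 in LNCaP and exactly 68 against 15 in 22Rv1. Its log2 read ratios were at least 1.93, at least 3.39 (lower limit 2.54) and 2.73 (1.91 to 3.64). The exon regions that were not called were narrower, at most 480 bp in LNCaP and 220 bp in 22Rv1, with one of 870 bp in HPr1AR. An example is the exon region starting at 41991051 in HPr1AR, 41991241 in LNCaP and 41991291 in 22Rv1, with 5 against 13, 4 against 11 and 2 against 8 reads. Log2 read ratios there were -0.19 (-2.03 to 1.39), -0.28 (-2.39 to 1.47) and -1.45 (-4.73 to 0.87). The lines were called apart at 4 exon stretches of MGA that all of them list. Those at 42019361 (17 against 15, 7 against 7 and 4 against 10 reads in HPr1AR, LNCaP and 22Rv1) and 42032041 (27 against 13, 4 against 4 and 11 against 7) were higher in HPr1AR alone. The one at 42021181 was higher in 22Rv1 alone (13 against 20, 7 against 9 and 12 against 4), and that at 42057071 in HPr1AR and LNCaP (20 against 12, 10 against 6 and 5 against 4). These differences between lines were not tested. Higher exon regions as narrow as 180 bp, 200 bp and 180 bp occurred as well. Relative to the median region the bound at 41988261 in HPr1AR was 0.70 and no longer passed, while MGA kept another higher exon region in that line. Among regions with a p-value of 0 the numerator reads are minimum reads, so the region with the most of them is not the one with the highest ratio.

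**Figure D4:**
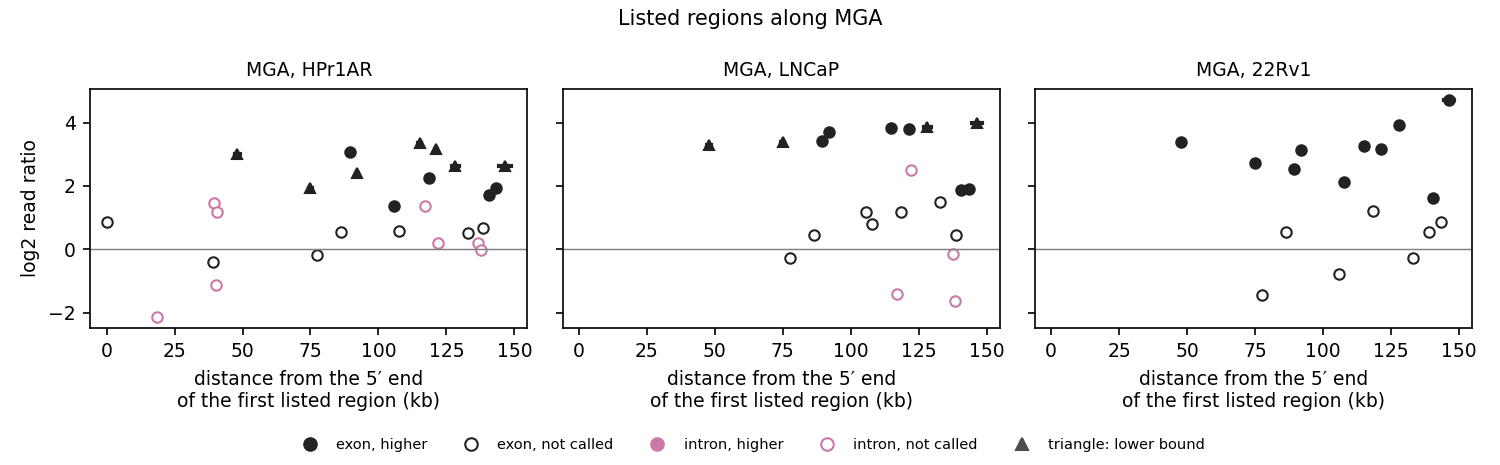
Log2 read ratio of each listed region of MGA against the distance in kb from the 5′ end of the first listed region, in HPr1AR, LNCaP and 22Rv1. Black marks exon and pink intron regions, filled marks are higher and triangles are lower bounds. Higher exon regions span the gene from about 48 kb to its 3′ end and alternate with exon regions near or below 0.

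MXD1, the first of the MXD repressors, was higher in 2 wide 3′ exon regions in every line, which lie side by side on chromosome 2. In 22Rv1 these held 46 numerator against 0 reference reads, or at least 4.49 in log2 read ratio (lower limit 4.13), and 41 against 4, a ratio of 3.90 (2.44 to 5.85). In LNCaP the same stretch was represented by 25 against 1 reads from 70166831 to 70167770, a ratio of 5.82 (3.21 to 11.18), and by 19 against 0 from 70164381 to 70166260, at least 3.84 (3.40). HPr1AR had at least 63 with 12 and at least 62 with 8. Beyond them HPr1AR listed an exon region of 210 bp, from 70169691 to 70169900, which was not called with 3 against 7 reads. No other MXD1 region was listed in LNCaP. HPr1AR listed 7 in all besides the wide pair, of which an intron region at 70163821 with 9 against 4 reads was higher, while the promoter-marked first region, with 10 against 21 reads and a ratio of 0.12 (-1.13 to 1.27), was not called.

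MXD4, a repressor often expressed in differentiated cells, was higher in a wide 3′ exon region in every line. The region on chromosome 4 from 2249191 to 2252990 in LNCaP, nearly the same in 22Rv1 and from 2250481 to 2252980 in HPr1AR, also carries the promoter and exon marks of the microRNA gene MIR4800 on the same strand. It held at least 63 with 15 reads in HPr1AR, at least 65 with 14 in LNCaP and exactly 57 against 7 in 22Rv1. In the rest of that stretch HPr1AR listed 2 short exon regions, at 2250061 with 4 against 3 reads and at 2249471 with 5 against 3, neither called. The log2 read ratios of the wide region were at least 3.26 (lower limit 2.43), at least 3.39 (2.54) and 3.57 (2.44 to 4.95). The promoter-marked first exon region was higher in 22Rv1 (13 against 5, ratio 1.93, 0.35 to 3.77), was not called in HPr1AR (9 against 10) and could not be determined in LNCaP (at least 18 with 20). An intron region from 2256421 to 2257050 held 21 against 1 reads in HPr1AR, a ratio of 5.58 (2.95 to 10.95). The LNCaP region within it held 3 against 5 and was not called, and 22Rv1 listed none. Whether the lines differ there was not tested, since no spread between samples is known.

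MXI1, which like the MXD proteins recruits SIN3, was led in all 3 lines by its promoter-marked first region, on chromosome 10 from about 111967361 to 111967780. It held 12 numerator against 0 reference reads in HPr1AR, 21 against 3 in LNCaP and 14 against 6 in 22Rv1, where a 3′ exon region tied with it at 14 numerator reads. The log2 read ratios were at least 3.19 (lower limit 2.66), 3.98 (2.24 to 6.37) and 1.77 (0.30 to 3.44), and adjusted p in 22Rv1 was 0.0296 by the exact binomial test. Relative to the median region of 22Rv1 the ratio turned to -0.33. The reads of all its exon regions together gave a ratio of 0.64 there, which did not pass. A second promoter-marked exon region, near 111987241, was higher in HPr1AR with 8 against 2 reads and in LNCaP with 10 against 0, and was not listed in 22Rv1. The 3′ exon regions were not called in LNCaP, where they held 18 against 18 and 17 against 24 reads over 890 and 1670 bp, nor in 22Rv1, where the widest held 14 against 11 and 10 against 5. In HPr1AR one of 360 bp at 112044601 was higher with 8 against 2. The widest exon region of a gene was higher for 8 of 8 genes in HPr1AR and 7 of 8 in LNCaP, and 22Rv1 had 7 of 8, beside 82.3%, 80% and 82.3% of all genes, and MXI1 was the gene without it in both cancer lines.

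LNCaP alone listed intron regions of MXI1, 5 in all, between the leading region and 111980950. Of these 3 were higher: 25 against 0 reads from 111972861 to 111973860, or at least 4.24 in log2 read ratio (lower limit 3.83), 8 against 1 from 111970091 to 111970660, and 5 against 0 from 111969441 to 111969610. No other gene is named there. Over all 8 genes, 33 of 84 stretches (39.3%) were listed in a single line, beside 58.7% of the stretches of all regions. They lay in HPr1AR in 23 cases and in LNCaP in 10, with 0 in 22Rv1, where the shares over all stretches were 35.4%, 17.9% and 5.47%. Of the 33, 4 (12.1%) were higher, the 3 of MXI1 and the MXD1 intron region of HPr1AR, beside 23.4% of all such stretches. The counts fall in the order of the rebuilt depths of both pull-downs together (16.8, 12.8 and 8.12 M), whose part in them was not tested.

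MLX was higher in its last exon region and in a promoter-marked exon region downstream of its start. The last one, on chromosome 17 from 40723551 to 40726380, is shared with an exon of PSMC3IP on the opposite strand, so its reads cannot be given to MLX alone. It held 62 against 14 reads in HPr1AR, at least 67 with 25 in LNCaP and 47 against 11 in 22Rv1, with log2 read ratios of 3.34 (2.48 to 4.29), at least 2.60 (lower limit 1.92) and 2.64 (1.67 to 3.74). The region from about 40720471 to 40722220 names MLX alone and held 25 against 25, 25 against 14 and 22 against 7 reads. Its ratios were 1.19 (0.33 to 2.05), 2.01 (1.01 to 3.07) and 2.20 (0.92 to 3.67), with overlapping intervals. At the first exon no region was called, with 1 to 9 numerator reads. The only intron region of MLX, listed in HPr1AR with 1 against 5 reads, was not called either.

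The order of the leading exon regions can be read in 22Rv1, where none rests on an unresolved pair of reads. From the top it ran MNT (4.61), MXD1 (at least 4.49), MGA (3.93), MAX (3.62), MXD4 (3.57), MLX (2.64), MXI1 (1.77) and MYC (1.51) in log2 read ratio, beside a median of 3.42 over all genes. The first 5 had overlapping intervals, so their order is not resolved. The intervals of MLX (up to 3.74) and MXI1 (up to 3.44) overlapped each other and those of MNT, MGA, MAX and MXD4. Their places are therefore not resolved either, except below MXD1. The upper limit of MYC, 2.07, lay below the lower limits of MNT, MXD1, MGA, MAX and MXD4 (3.19, 4.13, 2.81, 2.49 and 2.44) and above those of MLX (1.67) and MXI1 (0.30). In HPr1AR and LNCaP the bounds of MYC were again the lowest of the 8, at 1.07 and 1.16, but 7 of 8 and 6 of 8 leading values there were lower bounds, counting the ratio of MXI1 in HPr1AR, so no order follows.

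**Figure D5:**
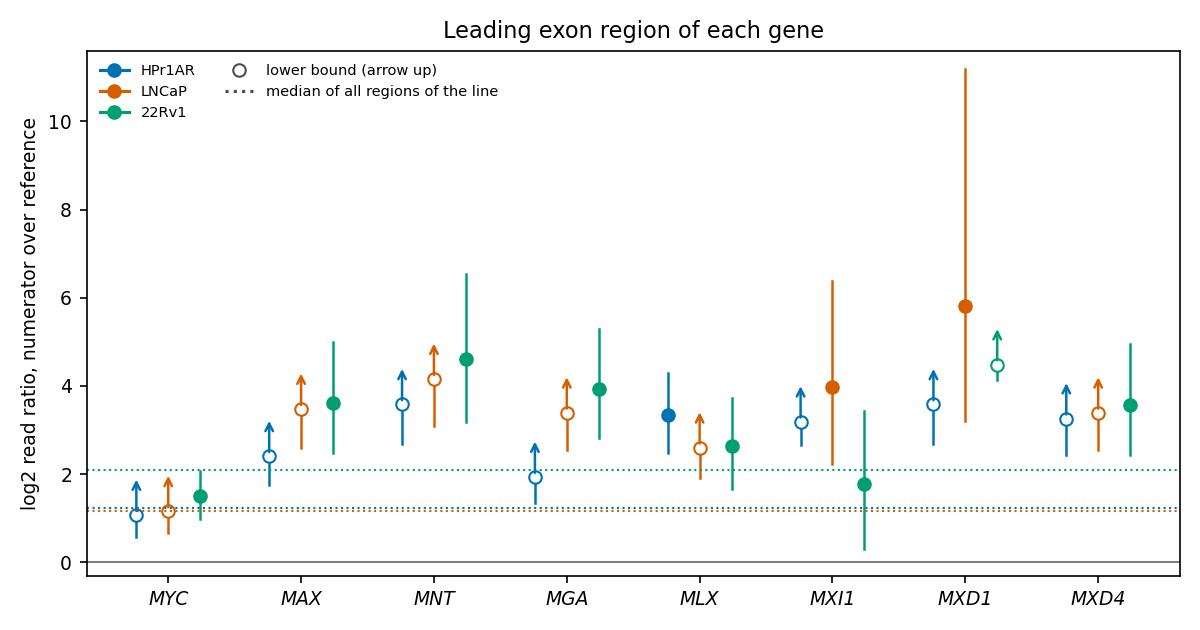
Log2 read ratio of the leading exon region of each gene in HPr1AR, LNCaP and 22Rv1 with exact 95% intervals. Open points with an arrow are lower bounds, and dotted lines give the median of all regions of each line (1.23, 1.18 and 2.10). In 22Rv1 MYC and MXI1 lie below the dotted line of that line and the other 6 genes above it. The median over the leading exon regions of all genes in 22Rv1, 3.42, is not drawn and lies above MLX too.

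Of the 52 member regions of 22Rv1, 50 (96.2%) overlapped a member region of HPr1AR by at least 1 bp and 50 one of LNCaP, beside 77.6% and 78.9% of all regions of that line. In the other direction 49 of the 84 HPr1AR regions (58.3%) overlapped one of 22Rv1 and 59 (70.2%) one of LNCaP, beside 38.9% and 50.5% of all regions. Of the 64 LNCaP regions 54 (84.4%) overlapped one of HPr1AR and 43 (67.2%) one of 22Rv1, beside 65.2% and 49.8%. The lists are of unequal length. With a reciprocal overlap of 50% the counts of HPr1AR dropped to 30 (35.7%) with 22Rv1 and 38 (45.2%) with LNCaP, and that of 22Rv1 with HPr1AR to 30 (57.7%). Of all regions 23.1%, 30.7% and 41.6% met this stricter rule. Counted as stretches, 40 of 84 (47.6%) were listed in all 3 lines, beside 25% of the 179560 stretches of all regions. Of these 40, 25 (62.5%) were higher in all 3 lines, beside 48.1% of all such stretches. They are 2 of 2 of MYC, 4 of 4 of MNT, 1 of 1 of MXD1, 5 of 6 of MAX, 2 of 3 of MLX, 9 of 17 of MGA, 1 of 3 of MXD4 and 1 of 4 of MXI1. Whether the members differ from all regions in these shares was not tested.

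Further genes of the pathway came from 7 lists, read by whether a gene had a higher exon region and by its leading region. Of 8 other family genes, all that were listed had one: 6 of 6 in HPr1AR and 7 of 7 in LNCaP, and 22Rv1 had 8 of 8, beside 90.9%, 87.7% and 88.9% of all genes with an exon region. MLXIP, a partner of MLX, had at least 66 with 30 reads, at least 65 with 18 and 81 against 8. USF1, an E-box factor, had at least 65 with 24, at least 66 with 23 and 82 against 15. MYCN, the neuronal relative of MYC, was listed in 22Rv1 alone, with 8 against 0 reads. MLXIPL, the carbohydrate response factor, was listed with 7 against 2 reads in LNCaP and 15 against 6 in 22Rv1. The cofactor list was higher in 12 of 12 genes in every line, near the same shares of all genes. It includes TRRAP, a scaffold of acetyltransferase complexes, with at least 60 with 1 reads, at least 66 with 20, and 89 against 14.

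Corepressors used by MXD proteins and MNT were higher in 5 of 7 genes in HPr1AR and 6 of 7 in LNCaP, and 22Rv1 had 6 of 7, beside 90.9%, 87.7% and 88.9% of all genes. HDAC1 and NCOR1 were higher in all 3 lines, with leading regions of 85 against 50 and 77 against 18 reads in 22Rv1. HDAC2, a deacetylase close to HDAC1, was not higher in any line, with 21 against 33, 14 against 27 and 16 against 27 reads. SAP30, a SIN3 subunit, had 12 against 12 reads in HPr1AR, where it was not higher, 33 against 0 in LNCaP and 17 against 4 in 22Rv1. In the MGA complex 9 of 10 listed genes were higher in HPr1AR and 6 of 9 in LNCaP, and 22Rv1 had 7 of 9, where the shares of all genes are again 90.9%, 87.7% and 88.9%. L3MBTL2 and TFDP1 were higher in all lines, while TFDP2 and CBX3 were each higher in a single one. The heterochromatin protein gene CBX3 had 51 against 74, 39 against 57 and 14 against 33 reads in its leading region.

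Genes of MYC turnover were higher in 12 of 12, 11 of 12 and 12 of 12 cases, near the 90.9%, 87.7% and 88.9% of all genes, among them GSK3B, a kinase that marks MYC for decay, and the ubiquitin ligase gene STUB1. CIP2A, which protects MYC, was the one not higher in LNCaP. Binders of m6A-marked MYC RNA were higher in 4 of 4 listed genes in HPr1AR and 3 of 3 in LNCaP, and 22Rv1 had 4 of 5, beside the same shares of all genes. IGF2BP3 held at least 64 with 18, 47 against 0 and 75 against 4 reads. YTHDF2 held at least 64 with 22, at least 68 with 32 and 66 against 15. IGF2BP2 was not listed in LNCaP and held at least 66 with 34 reads in HPr1AR and 38 against 1 in 22Rv1. IGF2BP1 was listed only in 22Rv1, with 5 against 1 reads and no call.

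Textbook targets of MYC were higher in 15 of 16 genes in HPr1AR and 11 of 15 in LNCaP, and 22Rv1 had 8 of 15, beside 90.9%, 87.7% and 88.9% of all genes. Their median leading log2 read ratio, bounds included, was 1.47, 1.09 and 0.82, beside 3.19, 3.35 and 3.42 over all genes, and the other 6 lists had medians between 1.78 and 3.49. NCL, which encodes nucleolin, and the nucleotide kinase gene NME1 were higher in all 3 lines. The leading region of NCL held at least 72 with 87 reads in HPr1AR, at least 77 with 113 in LNCaP and 62 against 90 in 22Rv1, where its ratio was 0.01 and another exon region was the higher one. ODC1, the polyamine synthesis enzyme, held 43 against 44, 27 against 74 and 25 against 54 reads and was higher in HPr1AR alone. LDHA, a lactate dehydrogenase subunit, held 38 against 86, 56 against 83 and 43 against 49 and was higher in LNCaP alone. Differences between lists and between lines were not tested.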

How the data were processed

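The 3 tables, 1 per cell line, compare m6A with IgG pull-downs over clusters of neighbouring windows. The authors' deposited values are a log2 fold of the representative window and a p-value with its adjusted value for each region, per the file headers. The submitters' processing notes name hg38, which the positions did not match; for the aligner, window counter and test, the tool is not given in the sources used. Window numbers per region were not tested, and 0 columns hold values per sample.

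From each deposited log2 fold and p-value the whole reads of the representative window were rebuilt, with up to 400 numerator reads and a band of 6% around the predicted p-value. The deposited fold was found to equal the log2 numerator rate minus 2 times the log2 reference rate plus a constant; library depths follow if the prior counts scale with depth, which was assumed. Where the p-value was 0 or no pair met both values, the smallest reads were kept as a lower bound. Read ratios were tested by an exact two-sided binomial test with Benjamini-Hochberg adjustment over all regions of a line at 0.05. Intervals are exact at 95%, and ratios use a floor of 3 reads where either pull-down has 0. The procedure was tested on simulated data. Whole reads were found for 99.9%, 96.9% and 100.0% of regions with a p-value above 0 in HPr1AR, LNCaP and 22Rv1. The labels call the samples biological replicates, but no spread between them can be computed from the tables.

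The 8 genes and the 7 lists (other MYC and MAX family genes, MYC cofactors and partners, corepressors of MXD and MNT, the MGA complex, MYC turnover, binders of MYC RNA and MYC targets) were chosen with earlier results of these data known. The leading exon region of a gene is the one with the most numerator reads, ties going to the larger deposited fold. Named by rule were the leading exon regions of the 8 genes, any region that is the only one of its kind in its gene, the 4 genes nearest to MYC, and from each list the 2 genes higher in the most and the 2 in the fewest lines; other regions were picked after their values were seen. Some genes that the rule names are not reported here. Alternatives were exon marks only, the median region as zero, summed exon reads, a threshold of 0.01 and stricter overlap. Further alternatives were the lowest fitting pair of reads, other limits on the p-value, a minimum read rate and regions that name no other gene. Python 3.11.15, numpy 2.4.6, scipy 1.17.1, pandas 2.3.3 and matplotlib 3.10.9 were used.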

Additional observations from a re-analysis of the deposited data

How the results depend on the processing

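Of 132 recomputed values, 110 kept their direction and their side of the threshold or stayed within 1.5 times the count. The 110 include 30 values recomputed with the lowest fitting pair of reads. Only 1 member region, not a leading one, had more than 1 fitting pair, so that setting could hardly change a value. With exon marks only, regions passing the authors' threshold numbered 48 in HPr1AR and 40 in LNCaP. At a threshold of 0.01, 7 genes kept a higher exon region in 22Rv1. With only regions that name no other gene, 7 genes did in HPr1AR and in LNCaP. Relative to the median region, higher regions numbered 22, 22 and 11 in HPr1AR, LNCaP and 22Rv1, and 5 genes had a higher exon region in 22Rv1. On that scale the leading region no longer passed for MYC in HPr1AR (at least -0.16) and LNCaP (at least -0.0196), MGA in HPr1AR (at least 0.70) and MLX in 22Rv1 (0.54), and it reversed in 22Rv1 for MYC (-0.59) and MXI1 (-0.33). Summed exon reads gave 0.64 for MXI1 in 22Rv1, no longer past the threshold. With a reciprocal overlap of 50%, 38 HPr1AR regions overlapped LNCaP, 30 overlapped 22Rv1, and 30 22Rv1 regions overlapped HPr1AR. Among higher regions, 31 and 29 of HPr1AR overlapped LNCaP and 22Rv1, 31 and 28 of LNCaP overlapped HPr1AR and 22Rv1, and 30 and 29 of 22Rv1 overlapped HPr1AR and LNCaP. The cause was not tested. No replicate could be left out. No paired analysis was possible because the tables hold no value per sample. Depth limits regions of few reads, where no call does not show equal rates.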
